A study of Mus musculus with 6 samples.

Results

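The genes described are the IL-20 subfamily cytokines Il19, Il20, Il24 and Il22, their relative Il10, and the receptor chains Il20ra, Il20rb, Il22ra1 and Il10rb. They were chosen by gene symbol, and all 9 were found among the 34590 gene symbols of the count files. The skin came from 3 Tnip1-/- mice and 3 Tnip1+/+ mice of the C57BL/6 strain, all treated on the skin surface with imiquimod for 2 days. Imiquimod, which activates Toll-like receptor 7, causes inflammation resembling psoriasis in mice, and Tnip1 encodes a protein that binds ubiquitin and A20 and holds back NF-kB. The labels state neither the age of the mice nor the deleted part of Tnip1, and untreated skin was not analysed here, so the comparison is between genotypes under imiquimod. Each library was made from total RNA of a skin biopsy, so it holds all cell types of the biopsy.

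IL-19, IL-20 and IL-24 act on epithelial cells through a receptor made of IL-20RA and IL-20RB. IL-20 and IL-24 also use IL-22RA1 paired with IL-20RB, and IL-22 uses IL-22RA1 paired with IL-10RB. IL-10, a cytokine that dampens inflammation, signals to leukocytes through IL-10RA and IL-10RB. All these receptors work through JAK kinases and STAT3. In psoriatic skin the IL-20 subfamily is known for driving thickening of the epidermis and the production of antimicrobial proteins by keratinocytes, which carry the receptors, whereas IL-22 itself comes from lymphocytes.

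Libraries held 19529970 to 25864730 gene counts in Tnip1-/- skin and 24701074 to 31005554 in Tnip1+/+ skin. Tnip1 had 47, 37 and 35 counts in the Tnip1-/- libraries, against 938, 739 and 703 in the Tnip1+/+ libraries. The genotypes separated along the first principal component (73.1% of variance). Summed keratinocyte markers stood at 25330 to 28980 CPM (gene counts scaled to library size with TMM factors) in Tnip1-/- skin and 9351 to 15360 CPM in Tnip1+/+ skin, so epidermis was present in every biopsy. Summed skeletal muscle markers stood at 3303 to 4863 CPM in Tnip1-/- skin, against 9805 to 17270 CPM in Tnip1+/+ skin, and summed adipocyte markers at 72.2 to 1244 CPM against 1964 to 3755 CPM. Tnip1-/- replicate 2 held the lowest adipocyte value, and Tnip1+/+ replicate 1 stood above the other 5 libraries in fibroblast markers, with 16440 CPM against 6135 to 7717 CPM. The library identifiers in the labels run in separate series for the genotypes (SJMMNORM for Tnip1-/-, SJMMIMQ for Tnip1+/+), so a difference in handling between these series and the genotype cannot be told apart.

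Il24, Il20, Il19 and Il10 lie next to each other, in this order, on mouse chromosome 1, with Il10 on the opposite strand. Promoter windows, from 250 bases before to 50 bases after the annotated start, were in the RefSeq table (GRCm38.p6) for 6 of the 9 genes. Those of Il19, the most abundant of the cytokines in Tnip1-/- skin, of its neighbour Il20, and of Il20ra, the receptor gene that fell, are shown 5′ to 3′ on the gene's own strand. Capitals mark every match to the STAT motif TTCNNNGAA, the AP-1 motif TGANTCA, the NF-kB consensus and the TATA motif TATAAA, searched on both strands.
Il19 (chr1:130940066-130940365, strand minus): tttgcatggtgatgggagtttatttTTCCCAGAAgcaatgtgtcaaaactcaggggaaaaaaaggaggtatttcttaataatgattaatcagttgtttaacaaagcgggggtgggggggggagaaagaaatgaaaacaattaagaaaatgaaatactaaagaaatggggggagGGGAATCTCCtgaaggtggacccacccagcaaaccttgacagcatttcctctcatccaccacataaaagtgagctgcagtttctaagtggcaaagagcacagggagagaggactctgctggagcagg
Il20 (chr1:130911247-130911546, strand minus): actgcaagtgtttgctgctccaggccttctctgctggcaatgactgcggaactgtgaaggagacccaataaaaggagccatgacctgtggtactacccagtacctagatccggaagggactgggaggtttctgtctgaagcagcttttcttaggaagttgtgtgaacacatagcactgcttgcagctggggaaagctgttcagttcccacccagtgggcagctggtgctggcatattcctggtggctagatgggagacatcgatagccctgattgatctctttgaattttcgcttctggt
Il20ra (chr10:19712337-19712636, strand plus): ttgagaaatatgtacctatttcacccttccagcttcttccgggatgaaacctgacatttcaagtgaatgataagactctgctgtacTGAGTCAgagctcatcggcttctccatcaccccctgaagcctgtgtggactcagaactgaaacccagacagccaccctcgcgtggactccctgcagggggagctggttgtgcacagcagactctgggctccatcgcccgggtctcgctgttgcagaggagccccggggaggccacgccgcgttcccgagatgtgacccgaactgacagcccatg

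The Il19 window held a STAT match at position -225 and an NF-kB match at position -77, counted from the start to the first base of the match. The Il20ra window held an AP-1 match at position -164, and none of these letters were found in the Il20 window. Of the other 3 windows, that of Il22 held a TATA match at -170 and that of Il22ra1 an AP-1 match at -222, and that of Il20rb held no match. Over all 32851 promoter windows of this length, 8.30% held the STAT motif, 7.81% the AP-1 motif, 4.51% the NF-kB consensus and 13.6% the TATA motif. These matches describe letters and do not show binding.

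The 4 IL-20 subfamily cytokines were nearly absent from Tnip1+/+ skin. Il19 and Il24 were present in all 3 Tnip1-/- libraries, and Il20 and Il22 in 2 of 3, with 2 counts each in Tnip1-/- replicate 3. Il10 and the receptor genes did not rise. Of the 9 genes, 7 had enough counts to be tested. Of these 7, 2 rose (Il19 and Il24) and 1 fell (Il20ra) at an adjusted p under 0.05 (quasi-likelihood test of edgeR, Benjamini-Hochberg adjusted over 16691 genes). In the same comparison 45.1% of all tested genes were called, 22.3% higher and 22.7% lower, so the share of members called is close to that of genes at large, and the sizes and directions of the single genes are what follows. Il19 and Il24 passed the filter only through the Tnip1-/- libraries, with 0, 9 and 7 and 0, 4 and 1 counts in the Tnip1+/+ libraries. Their calls, and the share of members called, therefore depend on the group where they are high and are no independent support. With library totals in place of TMM factors the split over all genes was 2490 higher and 4809 lower, against 3730 and 3795 with TMM, and the median log2 fold change of all tested genes was -0.19, against -0.04 with TMM. No member changed direction under that scaling.

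Il19, an epithelial and myeloid cytokine gene, was the most abundant of the 4 in Tnip1-/- skin. It had 1565, 302 and 141 counts in the Tnip1-/- libraries, against 0, 9 and 7 in the Tnip1+/+ libraries. These are 67.4, 12.8 and 7.36 CPM in Tnip1-/- skin, against 0, 0.306 and 0.259 CPM in Tnip1+/+ skin. The groups did not overlap, and the lowest Tnip1-/- library was far above the highest Tnip1+/+ library, while the Tnip1-/- libraries differed among themselves by 9.16-fold. The log2 increase of Il19 was 7.30 (SE 1.22, adjusted p = 0.00423, edgeR), which ranked 16 among 16691 genes by size of increase. The size depended on single libraries, with log2 values of 5.77 without Tnip1-/- replicate 1, 6.68 without Tnip1+/+ replicate 1 and 7.90 without Tnip1+/+ replicate 2. The ratio of summed counts was 171, with a 95% exact interval of 105 to 299 that covers counting error only.

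Il24, whose product shares the Il19 receptor, had 118, 45 and 23 counts in Tnip1-/- skin, against 0, 4 and 1 in Tnip1+/+ skin. Its levels were 5.08, 1.90 and 1.20 CPM in the Tnip1-/- libraries and 0, 0.136 and 0.0370 CPM in the Tnip1+/+ libraries, without overlap. The log2 increase of Il24 was 5.50 (SE 0.91, adjusted p = 0.00414, edgeR). The log2 value was 4.70 without Tnip1-/- replicate 1, 4.90 without Tnip1+/+ replicate 1 and 6.99 without Tnip1+/+ replicate 2.

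Il20 was absent from the Tnip1+/+ counts. It had 52, 63 and 2 counts in the Tnip1-/- libraries and 0 in each Tnip1+/+ library, so it was present in 2 Tnip1-/- libraries and close to absent from Tnip1-/- replicate 3. Against a floor of 3 counts over the Tnip1+/+ group, its level was at least 53.1-fold higher in Tnip1-/- skin. On the log2 scale this bound was 5.73, and it ranged from 5.06 without Tnip1+/+ replicate 1 to 6.20 without Tnip1-/- replicate 3. It was too low for the main test. With no filter on low counts Il20 passed (adjusted p = 0.00833, edgeR).

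Il22, the lymphocyte cytokine of this family, had 70, 26 and 2 counts in Tnip1-/- skin, against 2, 0 and 0 in Tnip1+/+ skin. The 2 counts of Tnip1-/- replicate 3 stood at 0.104 CPM, below the level of 3 counts in that library (0.157 CPM), so the increase was seen in 2 of 3 Tnip1-/- libraries. The ratio of summed counts was 66.7 (95% exact interval 18 to 559, counting error only). Its log2 was 6.06 with all libraries and 4.88 without Tnip1-/- replicate 1. Without Tnip1+/+ replicate 1 the remaining Tnip1+/+ libraries had 0 counts. The log2 ratio was then at least 4.81, a bound set by the floor of 3 counts and not a smaller increase. Il22 did not pass the filter either, and with no filter it was called higher (adjusted p = 0.00889, edgeR). Iltifb, a copy of Il22 in the mouse genome whose reads may be shared with it, had 4, 2 and 0 counts in Tnip1-/- skin, against 0, 1 and 0 in Tnip1+/+ skin.

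Il10 differed from its neighbours Il19, Il20 and Il24. It had 32, 33 and 25 counts in Tnip1-/- skin, against 37, 83 and 65 in Tnip1+/+ skin, and the groups overlapped because Tnip1+/+ replicate 1 was the lowest of all 6 libraries (1.11 CPM). The mean level was 1.36 ± 0.0485 CPM in Tnip1-/- skin and 2.11 ± 0.892 CPM in Tnip1+/+ skin (SD, n = 3 each). Il10 did not pass the test (log2 -0.63, SE 0.37, adjusted p = 0.199, edgeR), and without Tnip1+/+ replicate 1 it did (log2 -0.92, adjusted p = 0.0302).

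**Figure D1:**
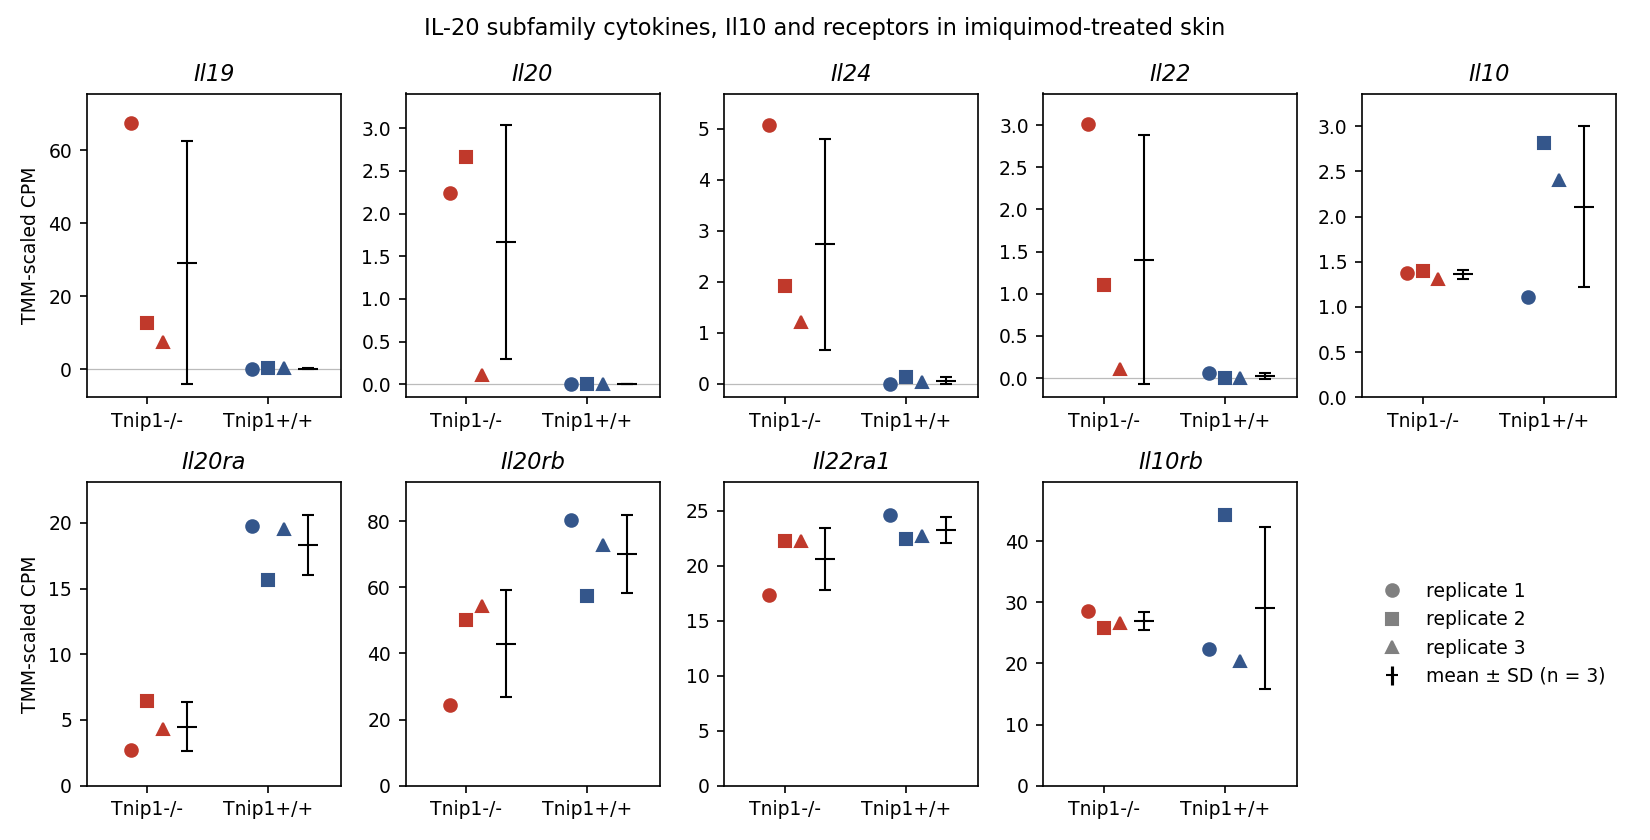
TMM-scaled CPM of each gene in every library, Tnip1-/- left and Tnip1+/+ right, on linear axes of their own; symbols are replicates and the black bar is the mean with its SD (n = 3). Il19, Il20, Il24 and Il22 lie near 0 in Tnip1+/+ skin and are spread widely in Tnip1-/- skin, with 67.4, 12.8 and 7.36 CPM for Il19, and Il20ra lies at 2.71 to 6.43 CPM in Tnip1-/- skin against 15.7 to 19.8 CPM in Tnip1+/+ skin.

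Among the other genes around this cluster, the response was uneven. Of the tested neighbours, Mapkapk2, which encodes a kinase downstream of p38, rose by 0.93 (log2; 152 ± 12.7 CPM in Tnip1-/- skin and 79.8 ± 8.26 CPM in Tnip1+/+ skin, SD, n = 3 each), and the kinase gene Dyrk3 rose by 1.94 (SE 0.37, adjusted p = 0.00626, edgeR). Pigr, which encodes the carrier of secreted immunoglobulins, had a log2 fold change of -0.97 and Fcamr, an Fc receptor gene, one of -0.17, and neither passed. Faim3, whose product is an IgM receptor, did not pass the filter and had 11, 5 and 4 counts in Tnip1-/- skin, against 0, 2 and 1 in Tnip1+/+ skin. In log2 ratios of summed counts Il24 stood at 5.66, Il19 at 7.42 and Il10 at -0.60, with Il20 between Il24 and Il19 in position and at 5.73 or more.

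**Figure D2:**
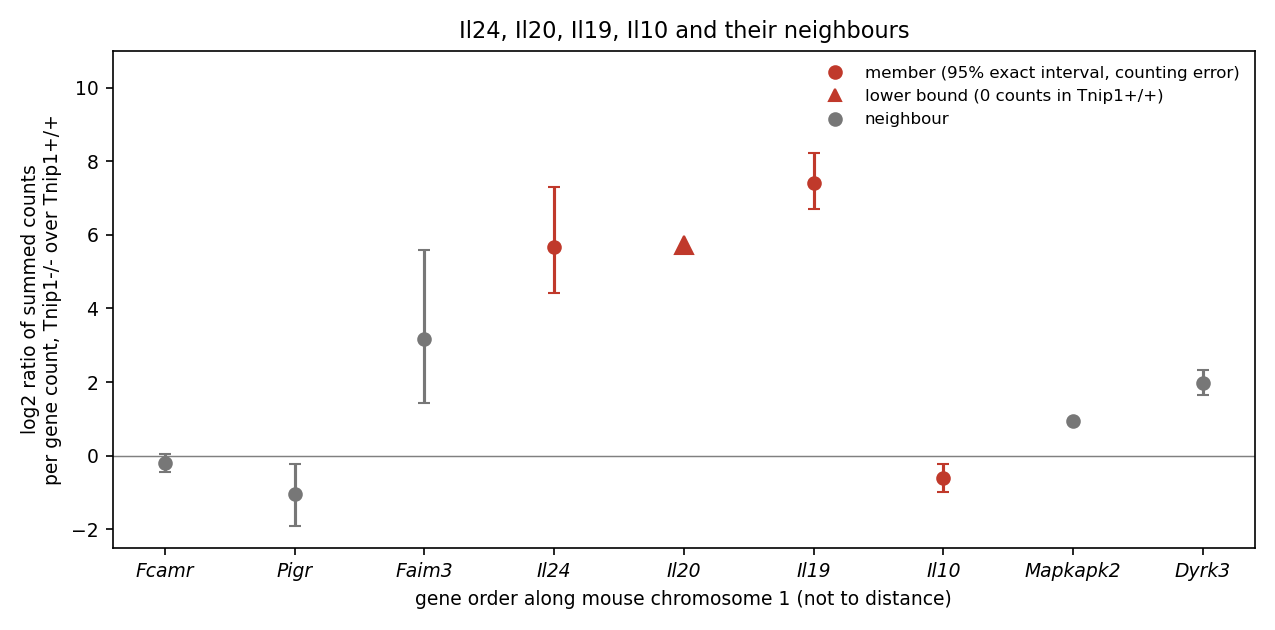
Log2 ratio of summed counts per gene count, Tnip1-/- over Tnip1+/+, for 9 genes in their order along mouse chromosome 1 (spacing not to scale); bars are 95% exact intervals for counting error only, and the triangle is a lower bound. Il24, Il20 and Il19 stand at 5.66, at least 5.73 and 7.42, between neighbours at lower values, and Il10 stands at -0.60.

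Il20ra, the receptor chain shared by the responses to IL-19, IL-20 and IL-24, fell. It had 63, 152 and 82 counts in Tnip1-/- skin, against 659, 461 and 529 in Tnip1+/+ skin. The levels were 2.71, 6.43 and 4.28 CPM in the Tnip1-/- libraries and 19.8, 15.7 and 19.6 CPM in the Tnip1+/+ libraries, and the groups did not overlap. The Tnip1-/- mean was 24.4% of the Tnip1+/+ mean. The log2 fold change of Il20ra was -2.03 (SE 0.30, adjusted p = 0.003, edgeR). In whole biopsies fewer cells of a type and less RNA per cell cannot be told apart. Of 10 keratinocyte markers 6 were higher in Tnip1-/- skin, 1 was lower and 3 did not pass. Over all tested genes 22.3% were called higher and 22.7% lower. The part of tissue make-up in the lower Il20ra was not tested. In the GENCODE M21 annotation Il20ra overlaps an antisense gene, Gm33332, and without a stated strand option their reads could not be told apart.

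Il20rb, the partner chain of both IL-20 receptors, had the highest mean level per length of the receptor genes in both genotypes. It had 566, 1182 and 1040 counts in Tnip1-/- skin, against 2685, 1686 and 1970 in Tnip1+/+ skin. The levels were 24.4, 50.03 and 54.3 CPM in the Tnip1-/- libraries and 80.5, 57.2 and 72.9 CPM in the Tnip1+/+ libraries, and the groups did not overlap. The difference did not pass the test over all genes (log2 -0.71, SE 0.30, adjusted p = 0.0887, edgeR).

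Il22ra1, the chain that gives epithelial cells their response to IL-22, had 17.4, 22.3 and 22.2 CPM in Tnip1-/- skin, against 24.7, 22.5 and 22.7 CPM in Tnip1+/+ skin. Tnip1-/- replicates 2 and 3 lay close to the Tnip1+/+ libraries and only Tnip1-/- replicate 1 lay apart from the other 5 (log2 -0.18, SE 0.14, adjusted p = 0.321, edgeR). Il10rb, the chain shared by IL-22 and IL-10, had 28.6, 25.7 and 26.6 CPM in Tnip1-/- skin, against 22.4, 44.3 and 20.5 CPM in Tnip1+/+ skin. Its log2 fold change of -0.11 (SE 0.29, adjusted p = 0.778, edgeR) turned to 0.33 without Tnip1+/+ replicate 2, the highest library (adjusted p = 0.0589). In GENCODE M21 Il10rb overlaps Gm21970, a gene on the same strand, so that some of its reads could have been left unassigned or counted elsewhere. Counting Il20 and Il22, 7 of the 9 genes had no overlap between the genotypes, and this held for 59.8% of all tested genes. Il20 and Il22 were themselves not among the tested genes. For Il22 the gap came from scaling alone, with 2 counts in both Tnip1-/- replicate 3 (0.104 CPM) and Tnip1+/+ replicate 1 (0.060 CPM).

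The balance of the receptor chains can be read within a library, where scaling does not matter. Il20ra had 11.1, 12.9 and 7.88 counts per 100 Il20rb counts in Tnip1-/- skin, against 24.5, 27.3 and 26.9 in Tnip1+/+ skin. The groups did not overlap, with means of 10.6 ± 2.53 in Tnip1-/- skin and 26.2 ± 1.49 in Tnip1+/+ skin (SD, n = 3 each). Of 3 such ratios tested with a two-sided exact permutation test, this one and Il20rb per Il22ra1 had p = 0.1 (0.15 adjusted over the 3 ratios), the smallest that 3 libraries against 3 allow. Il20rb had 140, 224 and 244 counts per 100 Il22ra1 counts in Tnip1-/- skin, against 326, 255 and 321 in Tnip1+/+ skin. Il22ra1 per 100 Il10rb stood at 60.7, 86.7 and 83.7 in Tnip1-/- skin and 110, 50.7 and 111 in Tnip1+/+ skin (exact permutation p = 0.6).

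Divided by the length of merged exons, levels can be compared between genes. In Tnip1-/- skin the mean order was Il19 (25.4 ± 28.9 CPM per kb), Il20rb (10.2 ± 3.85), Il22ra1 (8.03 ± 1.10), Il10rb (7.08 ± 0.386), Il24 (1.97 ± 1.49), Il20ra (1.84 ± 0.769), Il20 (1.41 ± 1.16), Il22 (1.27 ± 1.33) and Il10 (1.04 ± 0.0370; SD, n = 3 each). Neighbours in this order overlapped in range except at the step below Il10rb. The place of Il19 rested on Tnip1-/- replicate 1, where it stood at 58.6 CPM per kb. In replicate 2 it stood below Il20rb (11.1 against 11.9 CPM per kb), and in replicate 3 its 6.41 CPM per kb lay below Il20rb, Il22ra1 and Il10rb. In Tnip1+/+ skin Il20rb came first (16.7 ± 2.82 CPM per kb), followed by Il22ra1 (9.06 ± 0.469), Il10rb (7.63 ± 3.49), Il20ra (7.55 ± 0.953) and Il10 (1.61 ± 0.681), and then by Il19 (0.164 ± 0.143), Il24 (0.0416 ± 0.0507), Il22 (0.0180 ± 0.0312) and Il20 at 0. There the steps below Il20rb, Il20ra and Il10 had no overlap. Il20ra overlapped in range with Il10rb in Tnip1+/+ skin and lay below it in every Tnip1-/- library.

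Summed over Il19, Il20, Il24 and Il22, cytokine RNA came to 66.9, 15.7 and 7.45 CPM per kb in the Tnip1-/- libraries, against 0.0540, 0.364 and 0.252 in the Tnip1+/+ libraries. Summed over Il20ra, Il20rb, Il22ra1 and Il10rb, receptor RNA came to 21.2, 30.0 and 30.3 CPM per kb in Tnip1-/- skin, against 42.7, 40.5 and 39.6 in Tnip1+/+ skin. The cytokine sum exceeded the receptor sum in Tnip1-/- replicate 1 and in no other library. Il19 made up 86.7%, 69.3% and 83.9% of the 1805, 436 and 168 cytokine counts of the Tnip1-/- libraries.

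**Figure D3:**
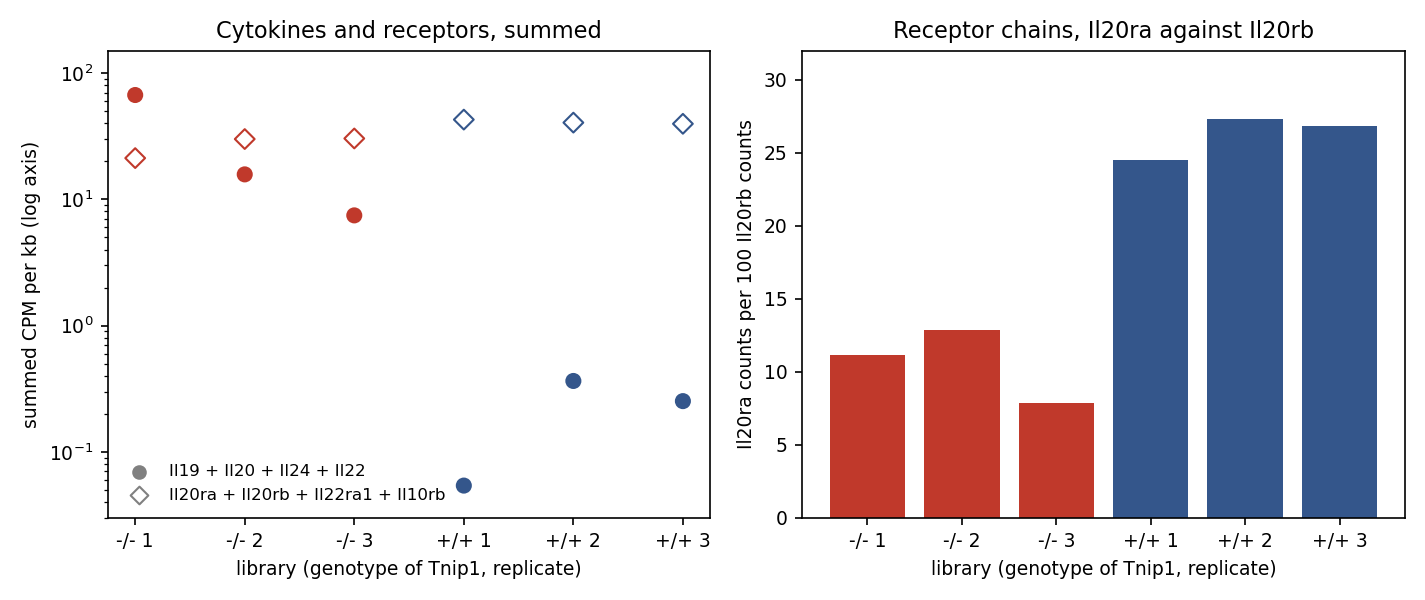
Left, summed CPM per kb of 4 cytokine genes (filled circles) and 4 receptor genes (open diamonds) in each library on a log axis; right, Il20ra counts per 100 Il20rb counts as bars from 0, with Tnip1-/- libraries in red and Tnip1+/+ libraries in blue. Cytokine sums are 7.45 to 66.9 in Tnip1-/- skin against 0.0540 to 0.364 in Tnip1+/+ skin, and the Il20ra ratio is 7.88 to 12.9 against 24.5 to 27.3.

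The Tnip1-/- libraries were not alike. Replicate 1 had the highest Il19, Il24 and Il22 and the lowest Il20ra, Il20rb and Il22ra1 of the Tnip1-/- libraries, whereas Il20 was highest in replicate 2. Replicate 3 had the lowest level of all 4 cytokines. The largest and smallest Tnip1-/- libraries differed by 25.5-fold for Il20 and 28.9-fold for Il22, against 1.07-fold for Il10 and 1.11-fold for Il10rb. Summed neutrophil markers were 189, 110 and 143 CPM in Tnip1-/- replicates 1, 2 and 3, against 27.3, 34.5 and 18.7 CPM in Tnip1+/+ replicates 1, 2 and 3, and summed macrophage and dendritic cell markers were 2381, 1957 and 1956 CPM against 1056, 1448 and 1118 CPM. Of the neutrophil markers, Ly6g did not pass the filter and had 9, 0 and 4 counts in Tnip1-/- skin and 0 in each Tnip1+/+ library, and 7 of the 8 tested were higher in Tnip1-/- skin. Some of these 7 passed the filter only through the Tnip1-/- libraries, such as Camp (0, 1 and 1 counts in Tnip1+/+ skin). Of 10 macrophage and dendritic cell markers, 5 were higher and 1 was lower, where 22.3% and 22.7% of all tested genes were. Their part in the cytokine values was not tested.

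Markers of lymphocytes, the known source of IL-22, were mixed. Their summed level was 79.7, 102 and 74.7 CPM in Tnip1-/- replicates 1, 2 and 3, against 110, 206 and 199 CPM in the Tnip1+/+ libraries. The sums without Thy1, a set chosen after seeing the data, were 49.5, 60.0 and 43.8 CPM in Tnip1-/- skin, against 56.6, 90.2 and 89.5 CPM in Tnip1+/+ skin, and these overlapped. Of 14 T cell and innate lymphoid markers, 7 had positive log2 fold changes. Of the 14, 2 were called higher (the T cell signalling genes Cd5 and Zap70) and 4 lower, among them Cd3e (log2 -1.06), a subunit of the T cell receptor complex, and Thy1 (-1.43), a surface glycoprotein gene that is also known outside lymphocytes. The share called was close to the 45.1% of all tested genes. The median over the list was -0.10, beside -0.04 over all tested genes. Ifng, a T cell cytokine gene, had 0, 1 and 1 counts in Tnip1-/- skin, against 4, 10 and 8 in Tnip1+/+ skin. Of the B cell and mast cell markers, other known sources of Il10, 0 of 6 tested members passed at an adjusted p under 0.05, with summed levels of 119 to 165 CPM in Tnip1-/- skin and 140 to 285 CPM in Tnip1+/+ skin.

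Most other genes of the pathway did not pass the test. Of 19 tested genes (22 in the files) for class II cytokine receptors, their kinases, STATs and SOCS inhibitors, 2 rose, 3 fell and 14 did not pass, with a median of 0.13 beside -0.04 over all tested genes. The share called was below the 45.1% of all tested genes. Stat3, the main transducer of these receptors, rose by 1.09 (SE 0.20, adjusted p = 0.00566, edgeR), with 291 ± 73.7 CPM in Tnip1-/- skin and 136 ± 15.1 CPM in Tnip1+/+ skin (SD, n = 3 each). Socs3, the STAT3-induced feedback inhibitor, had 3496, 1620 and 817 counts in Tnip1-/- skin, against 1218, 581 and 543 in Tnip1+/+ skin. It rose by 1.78 (SE 0.48, adjusted p = 0.0225, edgeR), with log2 1.14 without Tnip1-/- replicate 1, and it lost its call without Tnip1+/+ replicate 2 or 3 (log2 1.62 and 1.64). Socs1, its relative, had a log2 fold change of 0.91 and did not pass.

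Among the genes of the list that fell, Socs2, a growth hormone feedback inhibitor, fell by 0.76 (18.1 ± 0.941 CPM in Tnip1-/- skin and 30.7 ± 3.63 CPM in Tnip1+/+ skin, SD, n = 3 each). Il28ra, which encodes the interferon lambda receptor and lies beside Il22ra1, fell by 0.56, but lost its call when any library other than Tnip1+/+ replicate 2 was left out (log2 -0.63 to -0.43). Its ligand genes Il28a and Il28b had 0 counts in all 6 libraries. Il22ra2, the gene of a soluble decoy for IL-22, had 184, 477 and 137 counts in Tnip1-/- skin, against 862, 431 and 445 in Tnip1+/+ skin. The groups overlapped through Tnip1-/- replicate 2, and the log2 fold change of -0.69 (SE 0.43, adjusted p = 0.222, edgeR) reached -1.32 without that library (adjusted p = 0.0195). Il10ra, the leukocyte chain of the IL-10 receptor, stood at 0.20, and the receptor kinase genes Jak1 at 0.27 and Tyk2 at 0.09, and none of these passed. Jak1 passed without Tnip1+/+ replicate 2 (log2 0.34, adjusted p = 0.0393, edgeR) and with DESeq2 (log2 0.29, adjusted p = 0.0495).

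**Figure D4:**
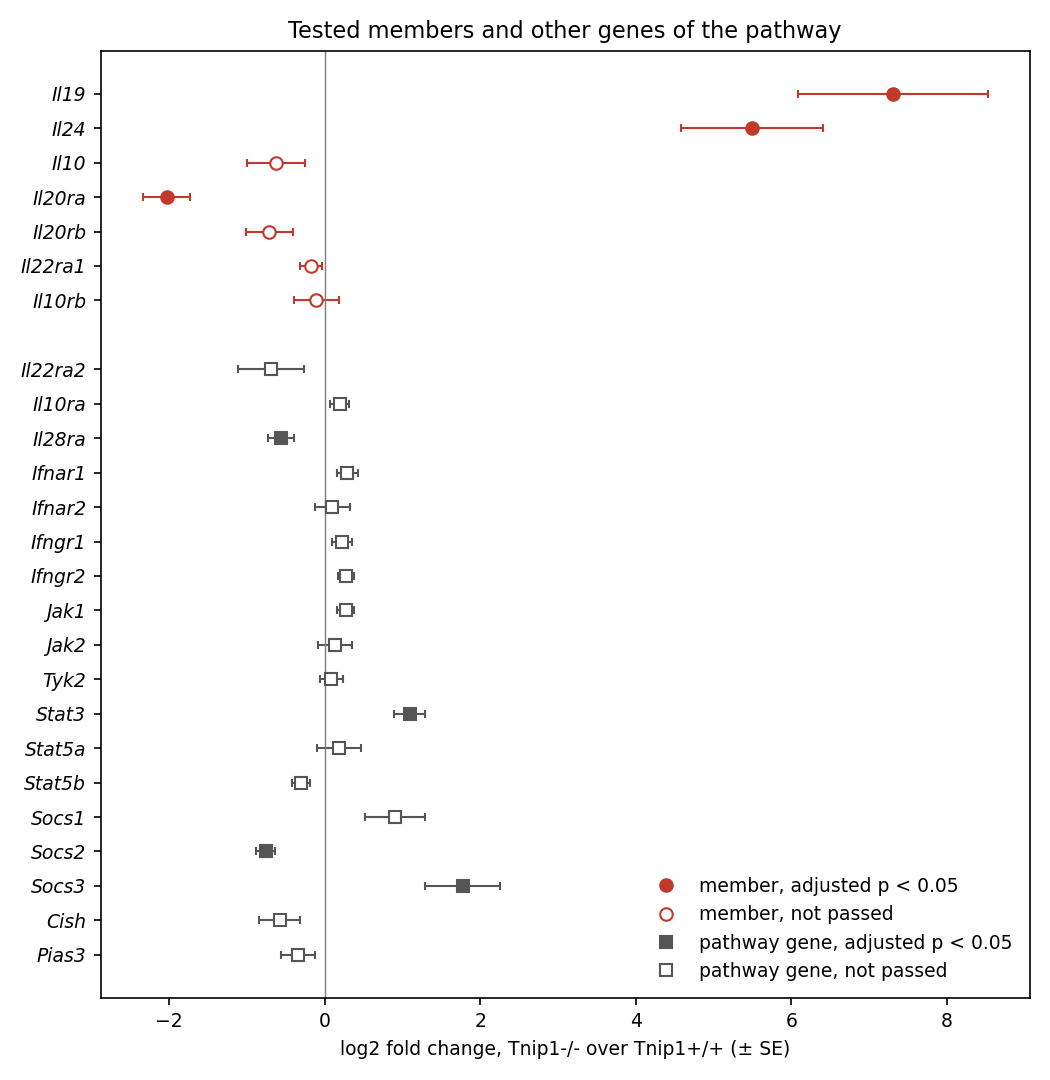
Log2 fold change, Tnip1-/- over Tnip1+/+, with its SE for the 7 tested members (circles) and other tested genes of the pathway (squares); filled symbols passed an adjusted p under 0.05. Il19 (7.30) and Il24 (5.50) lie far to the right of every pathway gene shown, the largest of which is Socs3 (1.78), and Il20ra (-2.03) lies furthest to the left of the genes shown.

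Genes downstream of these cytokines were read from 2 short lists known from human keratinocyte cultures. Of 14 genes that IL-22 or IL-20 subfamily cytokines raise there, 14 were called higher in Tnip1-/- skin and 0 lower, against 22.3% higher among all genes. Both lists were chosen with earlier results of these data known, so this count is no independent support. Some of the 14 passed the filter only through the Tnip1-/- libraries, such as Defb4 (3, 11 and 5 counts in Tnip1+/+ skin) and Cxcl5 (0, 5 and 1). The number called higher was 11 without Tnip1+/+ replicate 2, and 12 to 14 when any other library was left out. The median log2 fold change of the 14 genes was 5.99, beside -0.04 over all tested genes. Among them Defb4, a beta-defensin gene, rose by 6.63, and Krt16, a keratin of thickened epidermis, by 6.05. Of 6 differentiation genes that IL-22 lowers there, 3 were higher, 1 was lower and 2 did not pass. The keratin gene Krt1 (log2 1.34), the desmosomal cadherin gene Dsc1 (1.04) and the protease gene Klk7 (1.23) were the ones higher, and Krt10, the partner keratin of Krt1, was lower (-0.95). Krt10 lost its call without Tnip1-/- replicate 1 or 3 or Tnip1+/+ replicate 1 or 3 (log2 -1.06, -0.69, -0.84 and -0.94). Many cytokines act on these same genes, and a part of Il19, Il24, Il20 or Il22 in their values was not tested.

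Cytokines known to raise transcription of this family were higher in part. Of 8 such genes, 5 rose, 0 fell and 3 did not pass, where 22.3% of all tested genes were called higher and 22.7% lower. This list too was chosen with earlier results of these data known. Some of its genes passed the filter only through the Tnip1-/- libraries, such as Il23a (6, 6 and 0 counts in Tnip1+/+ skin). Il1b rose by 2.83 and Il23a, a subunit of IL-23, by 4.08. Il23r, the receptor chain through which lymphocytes answer IL-23, stood at 0.90 and did not pass (adjusted p = 0.15, edgeR). The number that rose was 3 without Tnip1+/+ replicate 2 or 3, and 3 with a stricter filter, which tests fewer genes.

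The profiles most like those of the members were found by the root-mean-square difference of log2 CPM, each gene centred over the 6 libraries. For Il19 these were Sprr2f (0.67), S100a7a (0.89) and Sprr2g (0.91), which are genes of the cornified envelope and of an antimicrobial S100 protein. The nearest of the other tested members was Il24 (1.24). Il20 and Il22 did not pass the filter and were not compared. The Sprr2 genes are near-identical copies, so their counts are uncertain. For Il24 the nearest were the neutrophil chemokine gene Cxcl5 (0.36), the neutrophil gene Retnlg (0.39) and Sh2d5 (0.40). Cxcl5 stood at 7.41, 3.85 and 1.93 CPM in Tnip1-/- skin, against 0, 0.170 and 0.0370 CPM in Tnip1+/+ skin. For Il20ra they were Trim2 (0.12), a ubiquitin ligase gene, the chemokine gene Ccl22 (0.16) and Rgnef (0.17). For Il20rb they were Fam26e, Fam189a2 and Zfp61 (0.10 to 0.14), and for Il10rb the leukocyte receptor gene Cd84 (0.04) came first. For Il10 they were Per2, Mid1 and Dusp19 (0.15 to 0.16), and for Il22ra1 Wwox, Ncoa2 and Trove2 (0.03 to 0.05). These likenesses rest on 6 libraries that share 2 genotypes.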

How the data were processed

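Gene RNA was measured in skin of 3 Tnip1-/- and 3 Tnip1+/+ mice, with groups taken from the titles. The authors deposited raw counts per gene symbol, in a file for each library. The replicates were separate mice, per the design text. Per the labels' protocols, RNA was depleted of ribosomal RNA, made into stranded libraries and read in pairs. The submitters' processing notes name STAR and BWA, HTSeq, CASAVA 1.7, limma, R 3.2.3 and build mm9. Their settings, the annotation and the counter's strand option are not given in the sources used here. The 5 summary lines of the counter (26.7% to 30.3% of each file) were left out.

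The model was edgeR 4.0.16 (R 4.3.3) with TMM factors of 0.898 to 1.095, filterByExpr and the quasi-likelihood test, adjusted by Benjamini-Hochberg across 16691 genes. Calls required an adjusted p under 0.05. SE was derived from the fold change and F. A gene with 3 counts stood at 0.0899 to 0.157 CPM. Intervals and floors cover counting error only. Exon lengths, gene order and overlaps came from GENCODE M21 (GRCm38), a later build than that of the counts. No replicate pair agreed within sampling noise (chi-square over degrees of freedom 33.1 to 134). The procedure was tested on simulated data.

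The members, lists and alternatives were chosen with earlier results of these data known. The text names all 9 members, Tnip1, genes of the pathway and neighbour lists, up to 4 genes per direction of the other lists with the smallest p and up to 3 that did not pass, and the 3 most similar profiles among genes averaging 1 CPM or more (prior count 2). Ly6g was chosen after its values were seen. Single values of some genes of these lists are not reported here. Alternatives were DESeq2 1.42.0, library totals, upper-quartile factors, no filter, a stricter filter, robust dispersion, the replicate number as a block and leaving out each library. The marker sum without Thy1 was added after seeing the data.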

Additional observations from a re-analysis of the deposited data

How the results depend on the processing

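The members called higher numbered 2 in the main fit and 4 with no filter or with DESeq2, where Il20 and Il22 were tested and passed (DESeq2 Wald test, adjusted p = 2.70e-06 and 2.67e-04), and 2 to 4 when 1 library was left out (Il22 missed the threshold without Tnip1+/+ replicate 2, adjusted p = 0.0546 by edgeR). Members called lower numbered 1, and 1 to 2 when 1 library was left out, with Il10 added without Tnip1+/+ replicate 1. Over the 7 tested members, 89 of 91 recomputed log2 fold changes kept their direction and their side of the threshold, 1 passed newly and 1, Il10rb, reversed (0.33 without Tnip1+/+ replicate 2, range -0.29 to 0.33). Il19, Il24 and Il20ra were called under every alternative tried, with adjusted p up to 0.0176, 0.0143 and 0.0134 by edgeR. Among other named genes Tyk2 turned to -0.072 with library totals (leaving out 1 library gave -0.029 to 0.23, below 0 without Tnip1+/+ replicate 2) and Fcamr to 0.041 without Tnip1+/+ replicate 1 (range -0.36 to 0.041). The difference in summed lymphocyte markers, Tnip1-/- minus Tnip1+/+, was -86.2 CPM, and -27.7 CPM without Thy1. All genes called numbered 5471 to 6866 with 1 library left out. Same-numbered libraries share only a number: their deviations from the group means correlated by 0.01, -0.21 and 0.19, and not every library correlated best with its own number. With the replicate block 6465 genes were called, 2 members higher and 1 lower. Depth limits Il20, Il22 and Il24, whose Tnip1+/+ sums were 0, 2 and 5 counts.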
